A study of Mus musculus with 4 samples.

Results

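The transcripts described here encode the subunits of TRiC (also called CCT), the chaperonin of the eukaryotic cytosol. They were chosen by gene symbol as the genes of its 8 subunits, and all 8 were found among 16142 genes measured by RNA-seq in CD4+ T cells of mice. Each value is an FPKM, a fragment number divided by transcript length and library size. The libraries were 2 from wild type (WT) B6 mice and 2 from Cd4CreERT2 LSL-R111A fl/fl mice, which express a form of Regnase-1 that the protease MALT1 does not cleave. Regnase-1, the product of Zc3h12a, is an endonuclease that shortens the life of many mRNAs in T cells.

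In the R111A mice, Cre recombinase that acts on tamoxifen was driven by Cd4, and it removed a stop cassette from a transgene in the Rosa26 locus. The transgene gave the mutant and EGFP from the CAG promoter. Tamoxifen was injected at 75 mg/kg for 5 days. The sample labels do not say clearly whether the WT mice received it in this experiment. Splenic CD4+ T cells were enriched with Dynabeads and FACS sorted, with a GFP+ gate described for reporter mice in general, and whether regulatory T cells were removed from these samples is not stated. All 4 libraries came from cells given anti-CD3 (5 µg/mL) plus anti-CD28 (1 µg/mL) over 12 h. Unstimulated cells, which the methods mention, were not analysed here. The age and sex of these animals were not given in the sample labels, nor whether each library came from a separate animal. For the experiments in general, the methods give an age range in weeks and mice of both sexes.

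TRiC is a barrel of stacked rings that closes over an unfolded protein as ATP is used, and each of its rings holds every subunit once. Actin, tubulin and many proteins with WD40 repeats reach their folded form inside it. T cells that have been stimulated through the antigen receptor enlarge and make protein at a high rate.

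The labels were checked first against the gene that the transgene encodes. Zc3h12a was measured at 16.97 and 15.72 FPKM in the WT libraries and at 196.30 and 130.87 FPKM in the R111A libraries. Both R111A libraries stood far above both WT libraries. The log2 fold change on the log2(FPKM + 1) scale, R111A minus WT, was 3.22 (SE 0.19, adjusted p = 9.19e-06, limma). These values do not tell the transgene from the endogenous gene.

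The cell type was then checked against marker genes. The summed level of 6 CD4+ T cell markers was 1686 and 1674 FPKM in the WT libraries against 1406 and 1258 FPKM in the R111A libraries, with Cd3g, a chain of the T cell receptor complex, the most abundant. Cd4 was measured at 157.54 and 131.28 FPKM in the WT libraries against 70.69 and 51.35 FPKM in the R111A libraries, and 4 of the 6 markers passed an adjusted p of 0.05 in the lower direction and 1, Cd3d, in the higher, though not on TPM. Cd8a did not exceed 0.20 FPKM in any library, and the sum of both CD8+ T cell markers lay between 3.88 and 7.31 FPKM. The libraries thus held T cell transcripts at high levels and Cd8a at close to 0.

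Markers of myeloid, NK and erythroid cells were low in all libraries, with summed levels that were higher in R111A. Their summed levels in WT replicate 1, WT replicate 2, R111A replicate 1 and R111A replicate 2 were 0.68, 0.12, 4.56 and 4.26 FPKM for 5 myeloid markers (most abundant Lyz2). For 4 NK cell markers they were 1.03, 0.82, 7.86 and 5.68 FPKM (most abundant Eomes, which T cells can also express). For 6 erythroid markers they were 0.66, 0.70, 12.93 and 12.97 FPKM, with Hba-a1 the most abundant and Hba-a2 and Hbb-bs listed at 0 in all 4 libraries. Of the B cell markers, Cd79a was measured at 0.32 and 0.24 FPKM in the WT libraries against 2.99 and 2.37 FPKM in the R111A libraries. Cd79b was measured at 1.15 and 0.24 FPKM in the WT libraries against 1.51 and 1.71 FPKM in the R111A libraries, while Ms4a1 and Pax5 did not exceed 0.23 FPKM in any library. Every marker of these lists that met the filter for a test, a mean of 1 FPKM over all 4 libraries, averaged less than that in WT. Such markers met it only through R111A, so no test of them is given. The part of these marker differences in the results was not tested. The regulatory T cell markers summed to 194.96 and 193.56 FPKM in the WT libraries against 141.45 and 146.86 FPKM in the R111A libraries. Most of this was Il2ra, at 140.21 and 136.12 FPKM in WT against 127.30 and 128.61 FPKM in R111A, which did not pass (adjusted p = 0.467, limma). The sum therefore does not give a share of regulatory T cells. Of these 4 markers, 2 were called lower, Foxp3 and Ctla4. Foxp3 was measured at 11.31 and 8.78 FPKM in the WT libraries against 2.86 and 1.86 FPKM in the R111A libraries, and the part of this difference in the results was not tested.

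All 8 subunit transcripts were measured at lower levels in R111A than in WT. The summed level of the 8 subunits was 3728 FPKM in WT replicate 1, 3578 FPKM in WT replicate 2, 2211 FPKM in R111A replicate 1 and 2554 FPKM in R111A replicate 2, a mean 34.8% lower in R111A. For each of the 8 genes both R111A libraries lay below both WT libraries, and the same held for 46.3% of all 9831 genes tested. In bulk RNA, fewer cells of a type and less RNA per cell cannot be told apart. Of the 8 genes, 7 passed an adjusted p of 0.05 in the lower direction, against 32.1% of all genes tested and 33.4% of those averaging 200 FPKM or more, a level that each subunit exceeds. Higher levels in R111A passed the same threshold for 21.2% of all genes tested and for 0 of the 8. With a 2-fold change required as well, 1 of the 8, Cct6a, was called lower, against 8.34% of all genes lower and 8.52% higher. The median log2 fold change of the 8 subunits was −0.61, and that of all genes tested was −0.12. The p-values measure the spread between these libraries, which may be technical, and an exact permutation test of 2 against 2 libraries cannot give a two-sided p below 0.333.

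**Figure D1:**
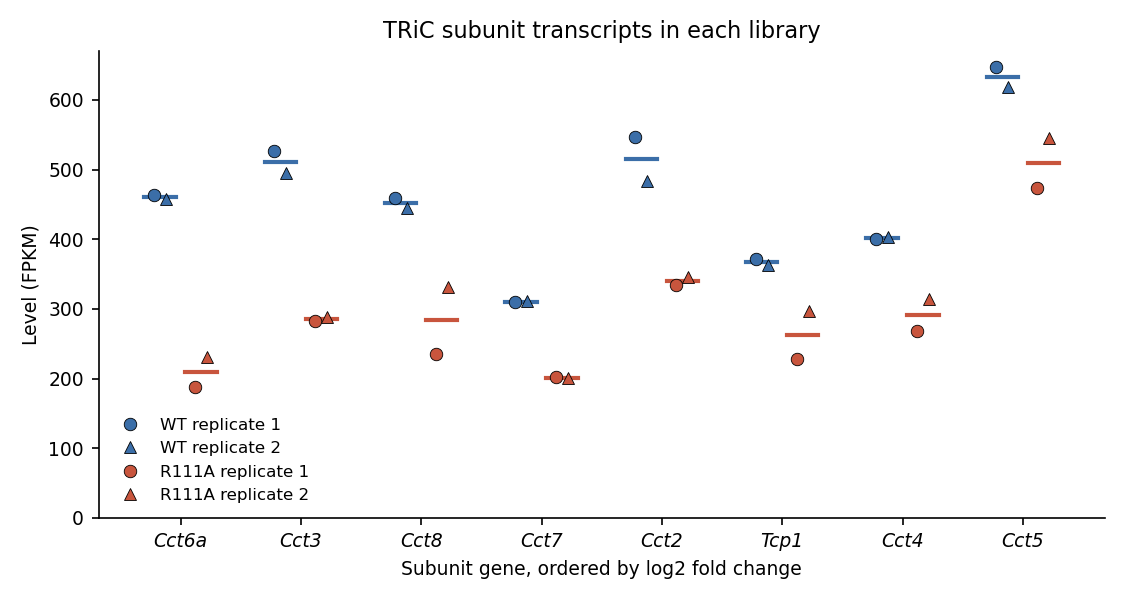
Level of each TRiC subunit transcript in FPKM (vertical axis, from 0) for the 8 genes (horizontal axis), with WT libraries in blue and R111A libraries in red, circles for replicate 1, triangles for replicate 2 and lines for the mean of the 2 libraries. All R111A points lie below the WT points of the same gene, and Cct5 is the highest in every library, from 473.59 FPKM in R111A replicate 1 to 647.70 FPKM in WT replicate 1.

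The subunits are described by their use of ATP. In the assembled complex, ATP is known to be bound and used most by the beta, delta and epsilon subunits and least by the gamma, zeta and theta subunits. This grouping was not planned, and a link between the use of ATP and the changes was not tested. Cct6a, which encodes the zeta subunit, was measured at 464.21 and 458.37 FPKM in the WT libraries against 187.92 and 230.64 FPKM in the R111A libraries. The R111A libraries held 45.4% of the WT mean, the lowest share of the 8. Its log2 fold change was −1.14 (SE 0.14, adjusted p = 0.000242), so its level dropped past the 2-fold threshold. Without R111A replicate 1 the log2 fold change of Cct6a was −0.997 and 0 of the 8 subunits were called lower.

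Cct3, which encodes the gamma subunit, was measured at 527.39 and 495.05 FPKM in the WT libraries against 283.02 and 287.99 FPKM in the R111A libraries. The groups were far apart beside the spread within each, 511 ± 22.9 FPKM in WT and 286 ± 3.51 FPKM in R111A (SD, n = 2 libraries). The log2 fold change was −0.84 (SE 0.12, adjusted p = 0.000604, limma). Cct8, which encodes the theta subunit, was measured at 459.90 and 444.53 FPKM in the WT libraries against 234.74 and 332.08 FPKM in the R111A libraries. Its R111A libraries differed more from each other than those of any other subunit, with replicate 2 at 41.5% above replicate 1. The log2 fold change of Cct8 was −0.69 (SE 0.17, adjusted p = 0.00871). It was −0.44 without R111A replicate 1, behind Cct7 and Cct2, and −0.94 without R111A replicate 2.

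Among the subunits that use ATP most, Cct2, which encodes the beta subunit, was measured at 546.26 and 483.77 FPKM in the WT libraries against 333.61 and 346.49 FPKM in the R111A libraries. Its WT libraries were the least alike of the 8 genes, and both still lay above both R111A libraries. The log2 fold change of Cct2 was −0.60 (SE 0.13, adjusted p = 0.00438). Cct4, which encodes the delta subunit, was measured at 400.76 and 403.22 FPKM in the WT libraries against 268.45 and 313.89 FPKM in the R111A libraries, with a log2 fold change of −0.47 (SE 0.13, adjusted p = 0.0155). Cct5, which encodes the epsilon subunit, was measured at 647.70 and 619.27 FPKM in the WT libraries against 473.59 and 545.82 FPKM in the R111A libraries. It was the most abundant of the 8 in every library, and the groups did not overlap. Its log2 fold change of −0.32 (SE 0.13, 95% confidence interval −0.61 to −0.02) did not pass the adjustment over all genes (adjusted p = 0.0669). This call depended on the scale, since on TPM the log2 fold change of Cct5 was −0.65 (adjusted p = 0.00106, limma). The value also moved with the libraries, to −0.42 on FPKM without R111A replicate 2.

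The 2 other subunits are Tcp1 and Cct7. Tcp1, the alpha subunit gene that gave the complex its name, was measured at 371.28 and 363.13 FPKM in the WT libraries against 227.37 and 296.64 FPKM in the R111A libraries. The log2 fold change of Tcp1 was −0.50 (SE 0.15, adjusted p = 0.0224), and it was −0.31 without R111A replicate 1 and −0.69 without R111A replicate 2. Cct7, which encodes the eta subunit, was measured at 310.11 and 310.90 FPKM in the WT libraries against 202.56 and 200.32 FPKM in the R111A libraries. The replicates of Cct7 nearly coincided within each group, and the log2 fold change was −0.62 (SE 0.12, adjusted p = 0.0026).

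Leaving out a library moved some of these calls. Without WT replicate 1, 4 of the 8 subunits passed the adjusted p, with Tcp1 (adjusted p = 0.113), Cct2 (0.084) and Cct4 (0.117) no longer among them. Without WT replicate 2, Tcp1 (0.0872) and Cct4 (0.125) no longer passed. No subunit changed direction when any library was left out.

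How far the subunits stood below WT depended on the scale. FPKM values of all genes summed to 801475 and 836143 in WT and to 1053551 and 1012215 in R111A, so rescaling each library to a common sum (TPM) lowers the R111A values of every gene. On TPM the median log2 fold change was −0.94 for the 8 subunits and −0.42 for all genes. All 8 subunits then passed an adjusted p of 0.05 in the lower direction, against 51.8% of all genes. With the 2-fold change added, 3 of the 8 were called, Cct6a (log2 fold change −1.48), Cct3 (−1.17) and Cct8 (−1.03), against 17.8% of all genes. Over all genes, 580 were called higher and 1756 lower on TPM, against 838 and 820 on FPKM. Relative to the median of all genes, the median of the subunits stood at −0.49 on the log2 scale with FPKM and at −0.52 with TPM. After quantile normalization it stood at −0.39 and no subunit (0 of 8) was called at 2-fold, while 5 of 8 passed the adjusted p. Tcp1 (log2 fold change −0.28, adjusted p = 0.178), Cct4 (−0.25, adjusted p = 0.124) and Cct5 (−0.20, adjusted p = 0.219) did not, and Cct7 passed at −0.40.

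**Figure D2:**
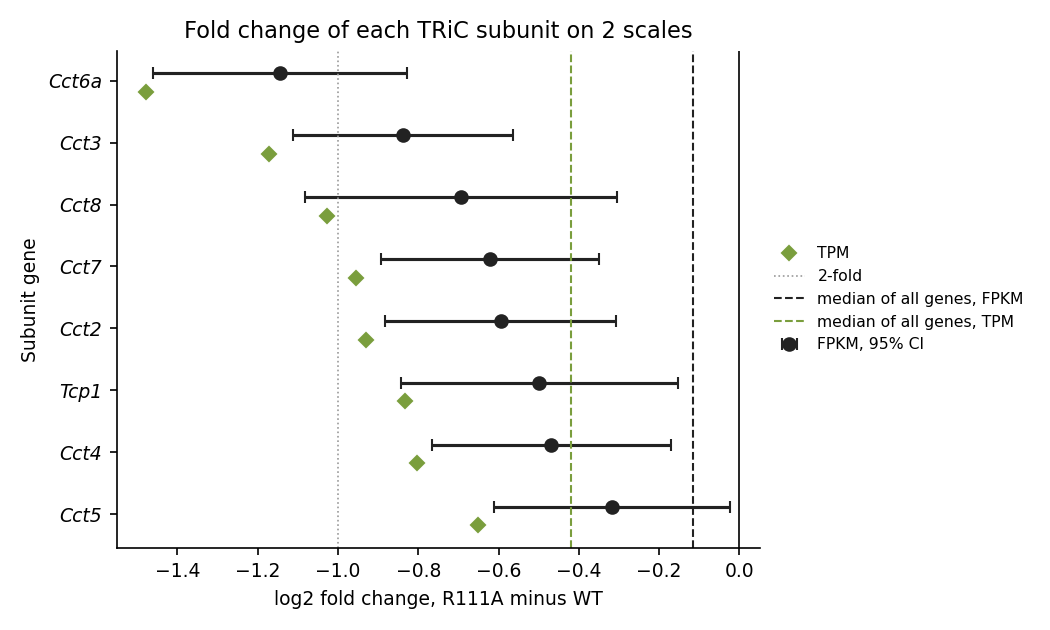
Log2 fold change of each subunit gene, R111A minus WT (horizontal axis), with black circles and 95% confidence intervals from FPKM, green diamonds from TPM, dashed lines at the median of all genes on each scale and a dotted line at 2-fold. All 8 points lie left of the dashed line of their own scale, from −1.14 for Cct6a to −0.32 for Cct5 on FPKM.

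Replicates of R111A were further apart than those of WT for 6 of the 8 subunits, all but Cct2 and Cct3. In R111A, replicate 2 was higher than replicate 1 for 7 of the 8 subunits, with Cct7 the exception. The median absolute log2 difference between replicates was 0.21 in R111A and 0.04 in WT. The largest were 0.50 for Cct8 in R111A and 0.17 for Cct2 in WT. From the steps that single fragments leave among low FPKM values, depth was estimated at 18300000 and 17400000 fragments in the WT libraries and at 17100000 and 14900000 in the R111A libraries. These estimates are rough, since the search covered a limited range of depths and used 127 to 191 genes for each library. At these depths, subunit levels stand for about 2990 to 11800 fragments for each kb of transcript.

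The balance among the subunits was read next. FPKM is per length, and the share of each subunit in the summed FPKM of the 8 was compared in each library. Levels of 5 subunits, Cct6a among them, may hold reads shared with other genes, as given with their positions, which limits the comparison between genes. Cct5 made up 17.4% and 17.3% of the sum in WT and 21.4% and 21.4% in R111A. Cct6a made up 12.5% and 12.8% in WT and 8.50% and 9.03% in R111A. The ratio of Cct6a to Cct5 was 0.717 and 0.740 in WT and 0.397 and 0.423 in R111A, so the groups stood apart. The highest subunit was 2.09 and 1.99 times the lowest in WT and 2.52 and 2.72 times in R111A.

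Relative to the mean of the 8 on the log2 scale, the mean of the R111A libraries differed from that of the WT libraries by −0.50 for Cct6a and −0.19 for Cct3, and by 0.33 for Cct5, 0.18 for Cct4 and 0.15 for Tcp1. Cct2, Cct7 and Cct8 overlapped between the groups. These differences are a description and were not tested. In both WT libraries Cct5 was the most abundant and Cct7 the least, with Cct6a in the 4th place. Cct6a was the last of the 8 in R111A replicate 1 and the 7th in R111A replicate 2.

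**Figure D3:**
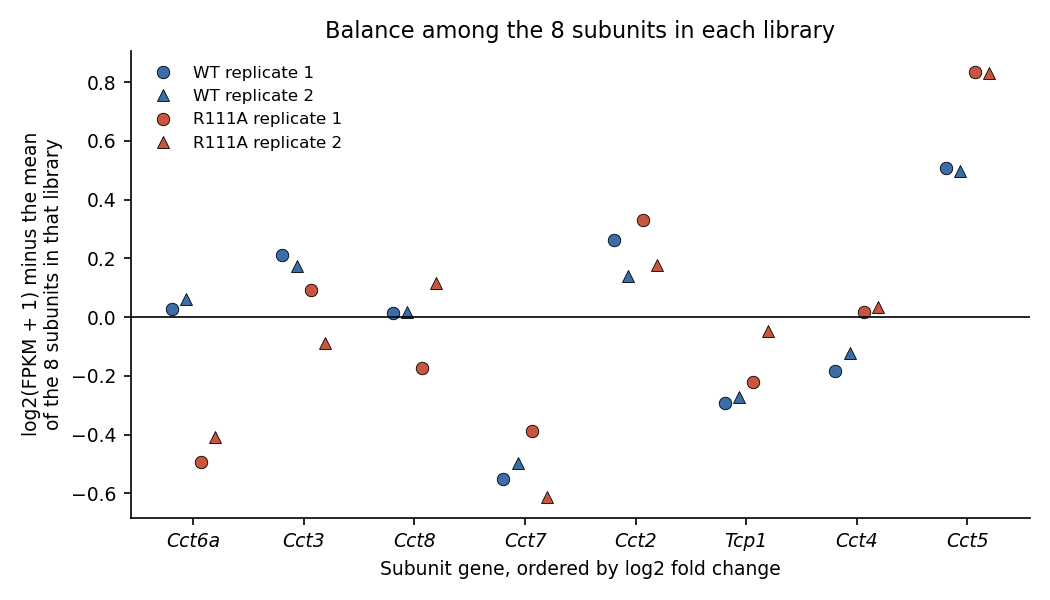
Level of each subunit on the log2(FPKM + 1) scale minus the mean of the 8 subunits in the same library (vertical axis) for the 8 genes (horizontal axis), with WT in blue, R111A in red, circles for replicate 1 and triangles for replicate 2. Cct5 stands at 0.50 in WT and 0.83 in R111A on average, and Cct6a at 0.05 and −0.45.

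Positions and sequence features were then examined, as all 8 subunits were measured at lower levels in R111A. The 8 genes lie on 8 different chromosomes of GRCm38.p6. Cct6a is at chr5:129787356-129846443 and Cct5 at chr15:31590800-31601846. Cct3 is at chr3:88297135-88321766, and none of the 3 shares a chromosome with another subunit gene. Reads of some subunits can be shared with other genes. Exons of Cct6a overlap 452 bases of Psph, an enzyme gene of serine synthesis on the opposite strand, which was measured at 41.44 and 46.97 FPKM in the WT libraries against 18.69 and 21.71 FPKM in the R111A libraries (log2 fold change −1.09, adjusted p = 0.000373). Exons of Tcp1 overlap 141 bases of Mrpl18, a mitochondrial ribosomal protein gene on the opposite strand (log2 fold change −1.03, adjusted p = 0.000213), and 571 bases of Acat3, which did not exceed 0.47 FPKM in any library. Cct7 overlaps Pradc1 (log2 fold change 0.005, adjusted p = 0.986) and Cct8 overlaps Usp16 (−0.003, adjusted p = 0.988) in the same way, and neither of these 2 passed. Whether the libraries kept the strand is not given in the sources used here, so reads of these overlaps cannot be told apart. The overlap with Psph is 12.5% of the exon bases of Cct6a, and those with Acat3 and Mrpl18 are 11.4% and 2.80% of the exon bases of Tcp1. Acat2 also matches 18.2% of the longest transcript of Tcp1 at 98.7% identity. Cct3 has a pseudogene, Cct3-ps1, that matches 83.5% of its longest transcript at 91.4% identity and is not in the table, and part of Cct7 has a pseudogene copy. The values of these 5 subunits therefore carry some uncertainty, while Cct2, Cct4 and Cct5 had no such copy or overlap.

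RefSeq promoters, 250 bases before to 50 after a start site, were matched for 7 of the 8 genes, all except Cct4, with 9 start sites. The GC box (GGGCGG) was found on either strand in 8 of these 9 promoters, with each of the 7 genes among them, and in 35.7% of 32851 promoters of all genes. The 9 promoters held 47.3% to 67.7% G and C, against a median of 52.7% over all promoters. The shares of all promoters were not matched for this content, so those of the GC box are not on equal terms. The CCAAT box (CCAAT) was found in 4 of 9, those of Tcp1, Cct3, Cct6a and Cct7, and in 37.4% of all promoters. A heat shock element, read as GAANNTTC or TTCNNGAA, was found in 3 of 9, 1 each of Cct2, Cct5 and Cct6a, and in 15.1% of all promoters. The E-box (CACGTG, bound by Myc among others) was found in 0 of 9 and in 7.15% of all promoters, and the TATA box (TATAAA) in 0 of 9 and in 13.6%. Every motif was searched on both strands, and none lies within another. A match describes letters in the window and nothing about a factor.

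The promoters of Cct6a and Cct5, which had the lowest and the highest log2 fold change of the subunits, are shown with that of Cct3. The sequences are from GRCm38.p6 in the 5′ to 3′ direction of the gene. Capitals mark the motifs above on either strand. Those of Cct6a (chr5:129787106-129787405, plus strand) hold 3 GC boxes, 2 CCAAT boxes and 1 heat shock element. Those of Cct3 (chr3:88296885-88297184, plus strand) hold 1 GC box and 2 CCAAT boxes. Those of Cct5 (chr15:31601797-31602096, minus strand) hold 1 GC box and 1 heat shock element. The window of a second start site of Cct5 (chr15:31601490-31601789, minus strand) holds none of the motifs.
Cct6a: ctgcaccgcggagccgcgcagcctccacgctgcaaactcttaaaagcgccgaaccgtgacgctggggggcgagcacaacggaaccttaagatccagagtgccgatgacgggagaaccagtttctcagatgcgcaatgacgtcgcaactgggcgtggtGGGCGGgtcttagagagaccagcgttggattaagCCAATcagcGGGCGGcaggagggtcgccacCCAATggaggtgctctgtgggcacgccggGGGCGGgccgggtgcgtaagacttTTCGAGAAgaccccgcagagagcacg
Cct3: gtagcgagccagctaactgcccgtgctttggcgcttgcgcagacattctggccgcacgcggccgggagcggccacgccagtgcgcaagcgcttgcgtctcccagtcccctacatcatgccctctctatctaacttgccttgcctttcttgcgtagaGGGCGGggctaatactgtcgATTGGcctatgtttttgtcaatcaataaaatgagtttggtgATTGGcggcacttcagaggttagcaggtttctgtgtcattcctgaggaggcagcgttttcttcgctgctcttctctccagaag
Cct5: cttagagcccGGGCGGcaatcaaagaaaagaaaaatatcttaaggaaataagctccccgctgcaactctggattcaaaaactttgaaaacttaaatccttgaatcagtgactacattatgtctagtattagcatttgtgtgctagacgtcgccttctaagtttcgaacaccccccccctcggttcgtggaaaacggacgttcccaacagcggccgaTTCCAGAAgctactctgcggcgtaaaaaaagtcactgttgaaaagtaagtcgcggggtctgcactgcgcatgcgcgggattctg

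Regnase-1 is known to act on stem-loops in 3′ untranslated regions (3′UTRs) whose loop reads pyrimidine, purine, pyrimidine. Such loops were counted on a stem of at least 5 pairs, a longer stem than the authors' own screen required. The count used the 3′UTR of the longest coding transcript, which was available for 7 of the 8 genes. Cct6a, the gene that fell most, was not searched, since 0 of its 7 transcripts are marked as coding in the annotation used. The 3′UTRs of these 7 were 128 to 662 bases long, with a median of 245 bases, against 1047 bases over 15577 genes of the table. Loops of this kind were found in 0 of the 7, against 22.3% of all genes and 7.70% of the 4648 genes with a 3′UTR of 128 to 662 bases. Zc3h12a held 3 in 856 bases. This count depended on the rule. A looser rule was added after the data were seen. It took stems of at least 3 pairs with 1 GC pair or more and loops of 3 to 6 bases that hold the pattern. These are the limits that the authors give for their own screen, which they applied to predicted folds. By this rule 6 of the 7 had such a loop, all but Cct3, against 95.4% of all genes. The share was 95.1% among genes in the same range of lengths. A match describes letters that can pair, and no folding was computed.

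Cofactors and clients of TRiC, other chaperones, 3 transcription factors and the 20S proteasome core were then read in 11 lists. The counts of each list stand beside the shares of all genes, of which 32.1% passed in the lower and 21.2% in the higher direction on FPKM, and 51.8% and 13.5% on TPM. No list was tested against the other genes. Prefoldin, a complex that hands unfolded actin and tubulin to TRiC, had 6 genes tested with a median log2 fold change of −0.28. Pfdn5, the most abundant, rose (0.66, adjusted p = 0.00224), Pfdn6 fell (−0.38, adjusted p = 0.0312) and the other 4 did not pass. On TPM, 5 of the 6 passed in the lower direction and Pfdn5 in the higher. The phosducin-like cofactors, which bind TRiC and adjust its cycle, had 3 genes tested. Pdcl3 fell (−0.42, adjusted p = 0.0347), Txndc9 rose on FPKM (0.49, adjusted p = 0.0255) but did not pass on TPM, and Pdcl did not pass. The list median changed sign with the scale, 0.30 on FPKM and −0.02 on TPM.

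In the R2TP and prefoldin-like list, a set of assembly factors for large complexes, 6 of 9 genes passed in the lower direction and 1 in the higher, against 32.1% and 21.2% of all genes. Polr2e, an RNA polymerase subunit and the most abundant of them, fell (−0.69). Uri1 (−1.24) and Rpap3 (−1.09) were called lower. Pdrg1 was called higher, from 67.75 and 65.72 FPKM in WT to 214.73 and 235.04 FPKM in R111A. The groups did not overlap for Pdrg1. The list had a median of −0.53, and 8 of the 9 passed in the lower direction on TPM.

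The tubulin cofactors take tubulin on from TRiC, and 4 of 6 passed in the lower direction and 0 in the higher, against 32.1% and 21.2% of all genes, with a median of −0.48. On TPM, 5 of the 6 passed in the lower direction. Tbca, the most abundant, was measured at 568.18 and 586.72 FPKM in the WT libraries against 319.86 and 498.99 FPKM in the R111A libraries (adjusted p = 0.0481). Tbcd (−1.20) and Arl2 (−1.13), a small GTPase that works with the cofactors, were called lower.

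The list of actin and tubulin clients went both ways. Of 14 actin and tubulin genes tested, 6 passed in the lower direction and 6 in the higher, with a median of −0.11. The 2 that did not pass were Tubb4b (−0.20, adjusted p = 0.228) and Tuba1c (−0.01, adjusted p = 0.975). On TPM, 4 of the 6 higher genes still passed, all but Tubb2a and Tubb4a, and 7 passed in the lower direction, with Tubb4b among them. Actb, the most abundant, was measured at 1934 and 1630 FPKM in the WT libraries against 1349 and 987 FPKM in the R111A libraries (log2 fold change −0.62, adjusted p = 0.0152). Tuba1b was measured at 1469 and 1439 FPKM in the WT libraries against 419 and 370 FPKM in the R111A libraries. Tubb5 (−1.73) was called lower with it. Tubb3 rose from 0.43 and 0.51 FPKM to 18.14 and 11.55 FPKM, and Tubb2b from 1.48 and 1.18 FPKM to 6.36 and 6.20 FPKM. Tubb3 and Tubb4a averaged under 1 FPKM in WT and met the filter of 1 FPKM only through R111A. Tuba8 and Tubg2, low in both groups, were not tested, so the count in the higher direction partly reflects the filter. The summed level of the list was 6001 and 5517 FPKM in the WT libraries against 3286 and 2531 FPKM in the R111A libraries, so the groups did not overlap in the sum.

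Of 13 other clients, 4 passed in the lower direction and 0 in the higher, with a median of −0.36. The lower share was close to the 32.1% of all genes. On TPM, 11 of the 13 passed in the lower direction, against 51.8% of all genes. Gnb1, a G protein beta subunit and the most abundant, did not pass on FPKM (−0.27, adjusted p = 0.107) and passed on TPM (−0.60, adjusted p = 0.00199). Ccne1, cyclin E1, was called lower, at 5.95 and 6.29 FPKM in the WT libraries against 1.17 and 0.76 FPKM in the R111A libraries. The others that passed on FPKM were Cdc20, Vhl and Hdac3.

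Other chaperones were read in 2 lists. In the cytosolic Hsp70 and Hsp90 list, 6 of 10 passed in the lower direction and 2 in the higher, against 32.1% and 21.2% of all genes, with a median of −0.79. Dnaja1 (−0.39, adjusted p = 0.111) and Dnajb1 (−0.17, adjusted p = 0.308) did not pass on FPKM, and both passed in the lower direction on TPM. Hspa8, the constitutive Hsp70 and the most abundant, was measured at 4150 and 3965 FPKM in the WT libraries against 1870 and 1922 FPKM in the R111A libraries (log2 fold change −1.10). The stress-inducible Hspa1b (1.85) and Hspa1a (1.34) were called higher, at levels of no more than 6.43 FPKM in any library. Both averaged under 1 FPKM in WT and met the filter of 1 FPKM only through R111A, so the filter favoured the higher direction for them. Both genes of the mitochondrial chaperonin fell, with a log2 fold change of −1.49 for Hspd1 and −0.66 for Hspe1, and with a median of −1.07.

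The chaperonin-like genes had 3 of 5 tested. Mkks, the most abundant, did not pass, and Bbs12, which is needed for assembly of the BBSome, was called lower (−1.17, adjusted p = 0.000874). Cct6b, a testis form of the zeta subunit, did not exceed 0.22 FPKM in any library, and Cct8l1 was listed at 0 in all 4. The median of this list was −0.17. Of 3 transcription factors, Myc, the most abundant, was called lower (−1.02), at 228.22 and 203.56 FPKM in the WT libraries against 127.80 and 87.58 FPKM in the R111A libraries. Hsf2 rose (0.85, adjusted p = 0.00414), while Hsf1, the main factor of the heat shock response, did not pass (0.13, adjusted p = 0.483). The median of these 3 was 0.13 on FPKM and −0.20 on TPM, so its sign changed with the scale.

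The 20S proteasome core served as another abundant ring complex, although its catalytic subunits can be exchanged for others in lymphocytes. Of its 14 genes, 3 passed in the lower direction (Psma1, Psmb4 and Psma5) and 0 in the higher, against 32.1% and 21.2% of all genes, and 0 were called at 2-fold. On TPM, 10 of the 14 passed in the lower direction, against 51.8% of all genes, and Psma1 (−1.22) and Psmb4 (−1.05) were called at 2-fold. Psma7, the most abundant, did not pass on FPKM (−0.09, adjusted p = 0.592) and passed on TPM (−0.43, adjusted p = 0.011). The median was −0.25, and the difference between this list and the TRiC subunits was not tested.

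**Figure D4:**
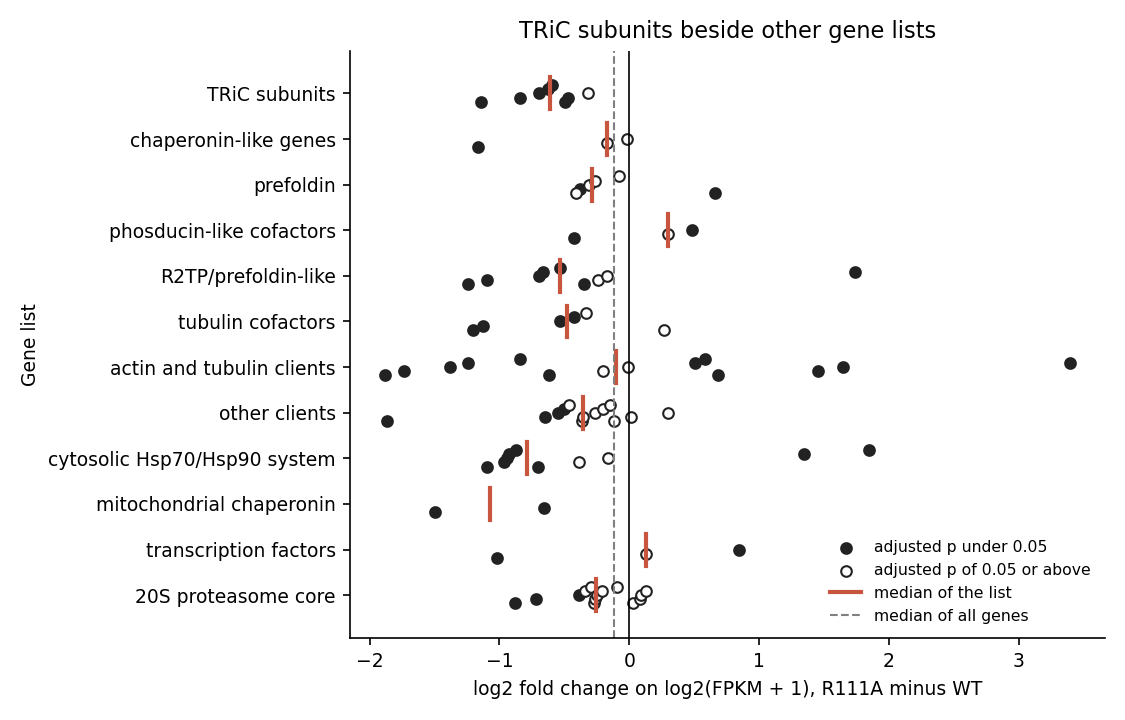
Log2 fold change on the log2(FPKM + 1) scale, R111A minus WT (horizontal axis), for each gene of the TRiC subunits and of the 11 other lists (vertical axis), filled where the adjusted p was under 0.05 and open otherwise, with red lines at list medians and a dashed line at the median of all genes (−0.12). The TRiC subunits have a median of −0.61, the cytosolic Hsp70 and Hsp90 list one of −0.79 and the 20S proteasome core one of −0.25.

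Genes with a pattern like that of the subunits were sought among 1930 other genes averaging 50 FPKM or more, over the 4 libraries. The measure was the root mean square difference of centred log2(FPKM + 1) from the mean of the 8 subunits. The 5 closest were Hspe1 (0.011), Hspa4 (0.026), Mrpl42 (0.027), Hnrnpk (0.029) and Mrpl3 (0.030). Hspe1 was measured at 1010 and 994 FPKM in the WT libraries against 592 and 681 FPKM in the R111A libraries, so that it too had the lower value in R111A replicate 1. Cct2 was the subunit nearest to the mean of the 8, and 58 other genes lay nearer than it. For Cct6a, the farthest, 794 other genes lay nearer. Each subunit is part of the mean of the 8 and the other genes are not, so these counts are not on equal terms.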

How the data were processed

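Per the labels and methods, the authors selected polyA RNA, aligned reads to mm10 with Bowtie2 (2.4.4) and estimated expression with RSEM (1.2.28). They deposited FPKM values, 1 for each gene and library. The authors tested counts with DESeq2, which was not repeated here, since the values used are not counts.

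The test was limma (3.58.1, R 4.3.3) on log2(FPKM + 1), using eBayes with a trend, over the 9831 genes that averaged 1 FPKM or more. This average was over all 4 libraries, so a low gene could be tested through its level in 1 group alone. P-values were adjusted by Benjamini-Hochberg over all genes tested, and a call needed an adjusted p under 0.05 and a 2-fold change. Fold changes on this scale understate changes of low genes. Tables were made in python 3.11.15 with pandas 2.3.3 and plots with matplotlib 3.10.9. Depth was estimated from single-transcript genes of GENCODE vM21. Promoters and positions came from RefSeq GRCm38.p6, and overlaps, copies and 3′UTRs from GENCODE vM21 (GRCm38).

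The genes named are the 8 subunits, Zc3h12a, the most abundant gene of each list beside the subunits with up to 4 called genes, and the 5 most alike. Other genes were named after their values were seen, to account for short counts. The summed level of the B cell marker list is not reported here. Members and lists were chosen with earlier results of these data known. Alternatives were pseudocounts of 0.1 and 5 FPKM, other filters, TPM, quantile normalization, median-of-ratios factors, a replicate block, no trend, no fold threshold and leaving out each library. A looser loop rule was added after the data were seen.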

Additional observations from a re-analysis of the deposited data

How the results depend on the processing

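Of 72 fold changes of single subunits under the alternatives that kept all libraries, 67 kept their direction and their side of the adjusted p of 0.05, 4 no longer passed and 1 newly passed; 0 reversed. With a library left out these counts were 26, 5 and 1 of 32, with 0 reversed, and the lone library of a group was then assumed to vary like the others.

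With a pseudocount of 5 FPKM, 386 genes were called higher and 402 lower, against 838 and 820. Keeping genes that averaged 5 FPKM or more, 521 were called higher and 659 lower. On TPM, 580 were called higher and 1756 lower, 3 of the 8 subunits were called lower and their median log2 fold change was −0.94. After quantile normalization, 0 subunits were called. By the adjusted p alone, 2088 genes were higher, 3152 lower and 7 subunits lower. Tcp1 and Cct8 no longer passed without a filter (adjusted p = 0.0676 and 0.0503). Leaving out a library, 0 to 1 subunits were called lower and 4 to 8 passed the adjusted p alone. The causes were not tested.

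Replicate numbers are shared by the groups, but nothing in the labels pairs the samples. Over 1938 genes the correlation of deviations of same-numbered samples was 0.088, from 1 pair, since with 2 libraries in a group the deviations of replicate 2 mirror those of replicate 1. With the replicate block, 841 genes were called higher and 821 lower, with 1 and 7 subunits as before, and no call of a subunit changed. Depth, an estimate here, limits only low genes, and 2 libraries in a group limit all errors given.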
